A study of Mus musculus with 10 samples.

Results

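The B cell identity transcription factors examined here are 9 nuclear regulators, Pax5, Bcl6, Bach2, Ebf1, Spib, Irf8, Foxo1, Satb1 and Pou2af1. They were taken by gene symbol from the 55492 symbols of a count table, and all 9 were among the 21010 genes with enough counts to be tested. Messenger RNA was sequenced from mouse B cells in 10 libraries that fall into 4 groups. The iGCB KO group (3 libraries) was splenic B cells with floxed Pcbp1 (fl/fl) and Mb1-Cre, differentiated for 4 days into induced germinal center B cells (iGCB) in the 40-LB system. The iGCB WT group (3 libraries) was B cells labelled wild type after the same culture. The naive KO group (2 libraries) and the naive WT group (2 libraries) were splenic naive B cells of the same genotypes on day 0. In the 40-LB system, B cells grow on fibroblast feeders that present CD40 ligand and BAFF. Pcbp1 encodes an RNA-binding protein, and the study asked what it does in B cell development and function. Mb1-Cre is carried at the Cd79a locus and acts from early B cell development, so the deletion precedes the naive stage. The labels leave out whether WT mice carried Cre, the strain and age of the mice, and whether libraries are from separate animals. The p-values therefore measure the spread between these libraries, which may be technical.

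Each library held 33400672 to 63576147 counts, and the 9 members took 0.486% to 0.752% of them. Pcbp1 was at 1.96 to 3.71 CPM (counts scaled to a common library total) in iGCB KO and 148 to 327 CPM in iGCB WT, and at 0.448 to 4.33 CPM in naive KO and 83.9 to 152 CPM in naive WT, lower in every KO library as labelled. By their Xist and Y-linked transcripts, the first library of each naive genotype was female and the remaining 8 libraries male. The summed level of 11 B cell markers was 13200 to 15900 CPM in iGCB KO, 12800 to 14100 in iGCB WT, 22000 to 25400 in naive KO and 25200 to 29500 in naive WT, with no marker at 0. The germinal center label had mixed support in the iGCB libraries, where Fas was at 133 to 175 CPM and Basp1 at 164 to 247 CPM. S1pr2 was at 7.35 to 12.8 CPM there, Gcsam at 31.1 to 72.1 CPM and Mef2b at 23.2 to 38.4 CPM. Each of these was above every naive library. Rgs13 (0 to 0.684 CPM) and Nuggc (0 to 1.09 CPM) were below every naive library, although both are markers of germinal center B cells. Aplnr, a further marker, was at 0 in the iGCB libraries and at most 0.314 CPM in the naive ones. Bcl6, also on the marker list, is described below.

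In B cell development, Ebf1 and Pax5 switch on the B lineage programme, and Pax5 then holds it in place until plasma cell differentiation. Bcl6 and Bach2 repress plasma cell genes, above all Prdm1, and Bcl6 is required for germinal centers. Spib and Irf8 bind composite elements and act with the related factor Spi1, Foxo1 drives genes of recirculation and of the germinal center dark zone, Satb1 is a chromatin organiser best known from T cells, and Pou2af1 (OBF1) is the coactivator of octamer-binding proteins and is needed for germinal centers.

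Promoter sequence is shown for Bach2, which fell the most between stages after Ebf1, for Pou2af1, which rose, and for Bcl6, whose KO and WT libraries separated in opposite directions at the 2 stages. RefSeq (GRCm38.p6) gave a promoter for all 9 members. Printed are the 250 bases before the start, 5′ to 3′ on the gene's strand, with the matches to the motifs searched in capitals.
Bcl6, chr16:23988853-23989102, minus strand: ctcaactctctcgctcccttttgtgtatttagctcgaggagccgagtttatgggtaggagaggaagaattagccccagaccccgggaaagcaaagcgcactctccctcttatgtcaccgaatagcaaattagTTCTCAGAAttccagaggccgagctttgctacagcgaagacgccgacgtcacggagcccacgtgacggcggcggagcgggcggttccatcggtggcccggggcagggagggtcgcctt
Bach2, chr4:32417185-32417434, plus strand: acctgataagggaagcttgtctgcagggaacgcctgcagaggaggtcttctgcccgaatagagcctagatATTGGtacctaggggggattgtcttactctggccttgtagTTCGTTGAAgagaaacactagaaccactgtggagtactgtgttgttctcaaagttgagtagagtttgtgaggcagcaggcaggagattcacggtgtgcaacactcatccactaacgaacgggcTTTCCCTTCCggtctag
Pou2af1, chr9:51213440-51213689, plus strand: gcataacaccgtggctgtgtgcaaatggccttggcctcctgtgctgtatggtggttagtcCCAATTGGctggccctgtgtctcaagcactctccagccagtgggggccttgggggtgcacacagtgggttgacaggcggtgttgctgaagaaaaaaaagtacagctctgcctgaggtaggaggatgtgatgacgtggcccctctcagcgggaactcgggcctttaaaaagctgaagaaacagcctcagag
Positions count back from -1, the last base printed, to the first base of the match. The Bcl6 window held 1 interferon-gamma-activated site (GAS, TTCNNNGAA) at -118. The Bach2 window held a GAS at -140, a CCAAT box on the opposite strand at -180 and, on the opposite strand at -17, the composite of ETS and IRF factors (GGAA and GAAA spaced by 2 bases), the element class that Spib and Irf8 bind. The Pou2af1 window held CCAAT boxes at -190 and -187, which overlap on opposite strands.

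Both strands of 32851 RefSeq promoter windows of this length were searched. A GAS was found in 7.02% of them, CCAAT in 33.8%, the ETS and IRF composite in 2.3%, the octamer ATGCAAAT in 1.6%, TATAAA in 12.4% and the EBF motif CCCNNGGG in 11.8%. None of the 9 members' windows held the octamer. A further RefSeq start of Bcl6 had GAS matches at -168, -122 and -88 and the composite at -28. The RefSeq start of Bach2 lies inside the gene as GENCODE M21 draws it (chromosome 4, 32238804 to 32586108, mm10). Bcl6 spans 23965052 to 23988852 on chromosome 16 and Pou2af1 spans 51213708 to 51240080 on chromosome 9. A match is a string of letters and was not tested as a binding site.

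**Figure D1:**
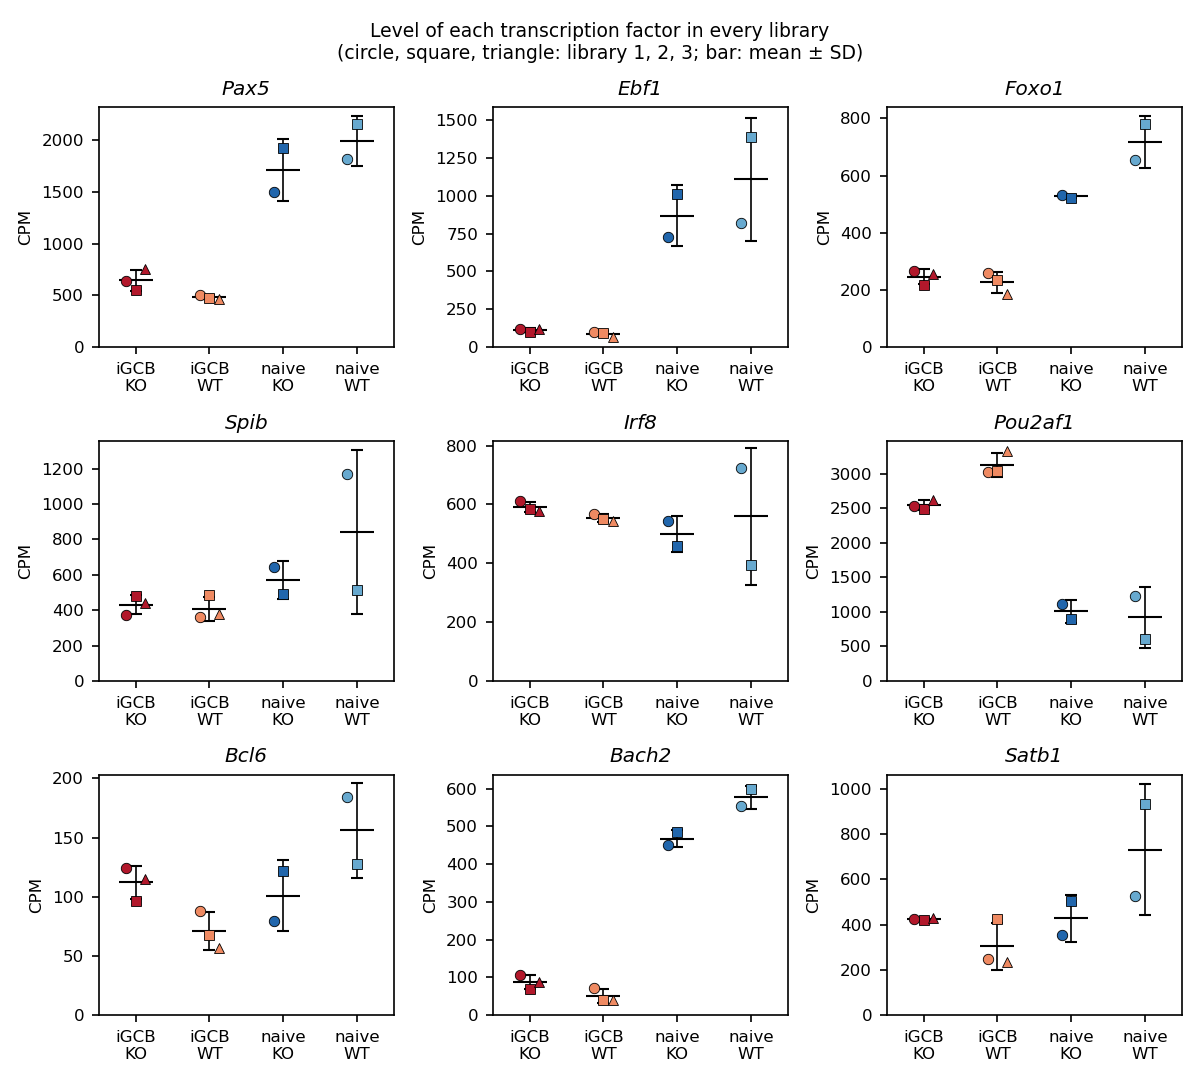
CPM (linear axis, separate for each gene) of the 9 members in each of the 10 libraries, grouped as iGCB KO, iGCB WT, naive KO and naive WT. There is 1 point per library and a bar at each group mean with its SD. Bach2 and Ebf1 sit far lower in both iGCB groups than in both naive groups, Pou2af1 sits higher, and Irf8 stays at 395 to 724 CPM throughout.

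Between genes, levels were compared as CPM per kilobase of exon (union of all annotated exons). In every group Pou2af1 ranked first, at 999 ± 27.1 CPM per kilobase in iGCB KO, 1230 ± 68.0 in iGCB WT, 395 ± 64.3 in naive KO and 362 ± 173 in naive WT (SD, n = 3, 3, 2 and 2 libraries). Spib ranked second throughout, at 151 ± 19.2 in iGCB KO, 143 ± 23.5 in iGCB WT, 199 ± 37.5 in naive KO and 294 ± 162 in naive WT. In the naive WT libraries the range of Pou2af1 (240 to 484 CPM per kilobase) overlapped that of Spib (180 to 409), and Spib overlapped Pax5 (205 to 244).

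Below them, the order in iGCB WT cells was Irf8 (78.7 ± 1.88 CPM per kilobase), Pax5 (54.4 ± 2.43), Foxo1 (26.2 ± 4.26), Satb1 (15.9 ± 5.51), Bcl6 (10.6 ± 2.37), Ebf1 (8.94 ± 1.78) and Bach2 (5.02 ± 1.79). From Foxo1 to Bach2 each neighbour's range overlapped the next in those libraries. The iGCB KO libraries had the same order, with Irf8 at 83.9 ± 2.35, Pax5 at 73.0 ± 11.6 and Bach2 last at 8.8 ± 1.81 CPM per kilobase. In naive WT cells the order after Spib was Pax5 (224 ± 27.2), Ebf1 (114 ± 41.6), Foxo1 (82.8 ± 10.5), Irf8 (79.3 ± 33.0), Bach2 (58.0 ± 3.08), Satb1 (38.4 ± 15.3) and Bcl6 (23.3 ± 5.93). There the ranges of Ebf1, Foxo1, Irf8 and Bach2 overlapped from each to the next. Naive KO cells had Irf8 (71.0 ± 8.68) above Foxo1 (60.8 ± 0.647) and otherwise the same order. Ebf1 thus had rank 8 of 9 in iGCB cells and rank 4 in naive cells.

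The order depends on the length used. The exon union of Satb1 (19027 bases) is far longer than its longest transcript (6243 bases), and that of Irf8 is 7055 bases against 3469. Per kilobase of longest transcript, Irf8 was at 160 ± 3.83 in iGCB WT and 161 ± 67.1 in naive WT, and Satb1 was at 48.6 ± 16.8 in iGCB WT and 117 ± 46.5 in naive WT. Irf8 then stood above Spib in both iGCB groups, and Satb1 above Foxo1 in all 4 groups.

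**Figure D2:**
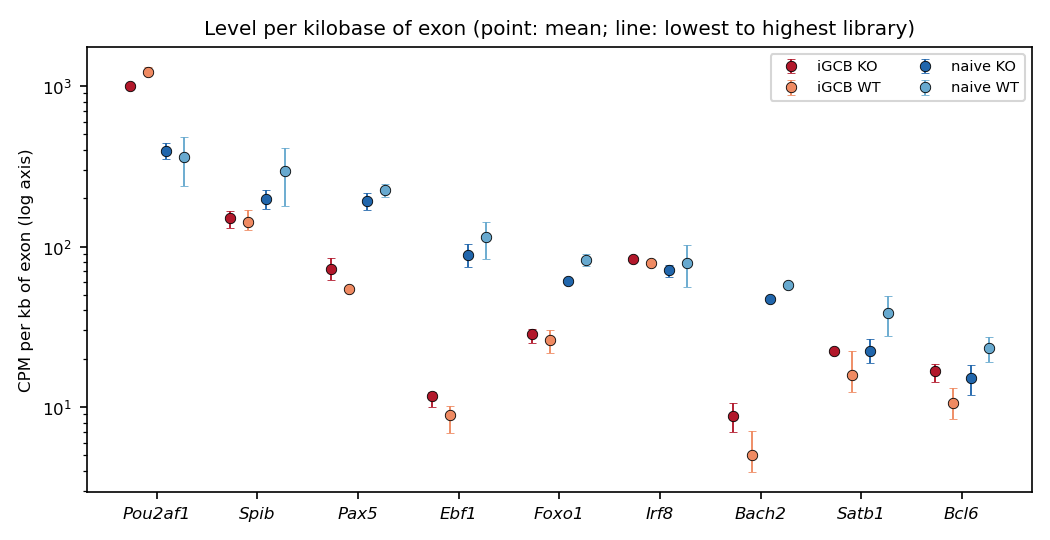
Mean level of each member in CPM per kilobase of exon union (log axis) in iGCB KO, iGCB WT, naive KO and naive WT cells, with bars from the lowest to the highest library. Pou2af1 leads in all 4 groups, and Bach2 and Ebf1 occupy the lowest places in both iGCB groups.

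The WT cells were compared between stages, iGCB against naive. The transcripts of 7 of the 9 factors fell and that of Pou2af1 rose, while Irf8 did not pass the test. By edgeR's quasi-likelihood test with Benjamini-Hochberg adjustment at 0.05 over all genes, 31.7% of tested genes fell and 24.7% rose in this comparison. The median log2 fold change was -1.27 over the 9 members and -0.25 over all genes tested. In bulk RNA, fewer cells of a type and less RNA per cell cannot be told apart. The naive and iGCB cells also differ in culture, in the feeders present and in the sex of 1 naive WT library.

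Ebf1 was at 98.7, 95.7 and 67.2 CPM in iGCB WT and 820 and 1390 CPM in naive WT. The groups lay far apart, with the highest iGCB library well below the lowest naive one. Its log2 fold change was -3.67 (SE 0.27, adjusted p = 2.4e-06), which is 12.7-fold lower. Pax5, which Ebf1 activates during lineage entry, was at 506, 471 and 467 CPM in iGCB WT and 1820 and 2160 CPM in naive WT. The 3 iGCB libraries were close to each other and all below both naive ones (log2 fold change -2.04, SE 0.19, adjusted p = 1.04e-05).

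Bach2, the repressor that holds back plasma cell differentiation, was at 70.5, 40.3 and 39.1 CPM in iGCB WT and 555 and 598 CPM in naive WT. The iGCB libraries were all lower, the first of them less so. The log2 fold change was -3.53 (SE 0.27, adjusted p = 3.08e-06), or 11.6-fold lower. Bcl6 was at 87.9, 67.8 and 56.6 CPM in iGCB WT and 184 and 128 CPM in naive WT. The groups did not overlap and the log2 fold change was -1.14 (SE 0.24, adjusted p = 0.00258), so this germinal center factor was lower in the cultured WT cells than in the naive ones.

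Foxo1, a target of phosphoinositide 3-kinase signalling, was at 260, 233 and 187 CPM in iGCB WT and 654 and 782 CPM in naive WT, without overlap (log2 fold change -1.66, SE 0.18, adjusted p = 2.91e-05). Satb1 was at 249, 424 and 236 CPM in iGCB WT and 525 and 935 CPM in naive WT. The second iGCB library stood above the other two and still below both naive ones (log2 fold change -1.27, SE 0.29, adjusted p = 0.00386).

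Spib, an ETS factor close to Spi1, was at 362, 486 and 379 CPM in iGCB WT and 1170 and 516 CPM in naive WT. Its naive libraries were far apart, the male one only just above the highest iGCB library. The log2 fold change of -1.04 (SE 0.29, adjusted p = 0.0112) rested on naive WT 1. Without that library it was -0.33 (adjusted p = 0.25), and among male libraries alone -0.33 (adjusted p = 0.196).

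Irf8 was at 569, 552 and 543 CPM in iGCB WT and 724 and 395 CPM in naive WT. The 3 iGCB libraries lay close together and between the naive ones, which flank them on either side. The log2 fold change was -0.01 (SE 0.22, adjusted p = 0.968), and without naive WT 1 it was 0.49 (adjusted p = 0.0418). Its level beside the single male naive WT library was thus higher, and beside the female one lower.

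Pou2af1 was the member that rose, at 3030, 3040 and 3330 CPM in iGCB WT and 1230 and 612 CPM in naive WT. All iGCB libraries were above both naive ones, and the naive male library was the lowest. The log2 fold change was 1.76 (SE 0.27, adjusted p = 0.00033), or 3.4-fold higher. Beside the male naive library alone, the log2 ratio of the iGCB mean was 2.36.

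The same stage comparison in KO cells gave fewer members past the threshold. Of the 9, 4 fell (Pax5, Bach2, Ebf1 and Foxo1) and Pou2af1 rose, where 31.4% of all genes tested fell and 24.8% rose. The median was -0.4 over the members and -0.26 over all genes. Ebf1 was at 122, 97.8 and 121 CPM in iGCB KO and 727 and 1010 CPM in naive KO, far apart without overlap (log2 fold change -2.93, SE 0.26, adjusted p = 1.02e-05).

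Bach2 was at 106, 69.8 and 87 CPM in iGCB KO and 451 and 485 CPM in naive KO, again with every cultured library lower (log2 fold change -2.42, SE 0.26, adjusted p = 3.18e-05). Pax5 was at 640, 547 and 752 CPM in iGCB KO and 1500 and 1920 CPM in naive KO (log2 fold change -1.4, SE 0.19, adjusted p = 0.000125). Foxo1 was at 267, 216 and 255 CPM in iGCB KO and 531 and 523 CPM in naive KO (log2 fold change -1.1, SE 0.18, adjusted p = 0.000455). None of these groups overlapped. Pou2af1 was at 2530, 2490 and 2620 CPM in iGCB KO and 1120 and 891 CPM in naive KO, all cultured libraries being higher (log2 fold change 1.34, SE 0.27, adjusted p = 0.00168).

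The other 4 members did not pass in KO cells. Bcl6 was at 124, 96.3 and 115 CPM in iGCB KO and 79.5 and 122 CPM in naive KO, with overlapping groups (log2 fold change 0.14, SE 0.25, adjusted p = 0.634). Satb1 was at 426, 420 and 429 CPM in iGCB KO and 355 and 502 CPM in naive KO. The cultured libraries fell between the naive ones (log2 fold change -0.01, SE 0.3, adjusted p = 0.976). Spib was at 372, 480 and 443 CPM in iGCB KO and 647 and 494 CPM in naive KO, lower in all cultured libraries (log2 fold change -0.4, SE 0.29, adjusted p = 0.259). Irf8 was at 610, 586 and 579 CPM in iGCB KO and 544 and 457 CPM in naive KO, higher in all cultured libraries by 0.24 (SE 0.22, adjusted p = 0.371). With a term for sex that value was 0.52 (adjusted p = 0.0179).

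**Figure D3:**
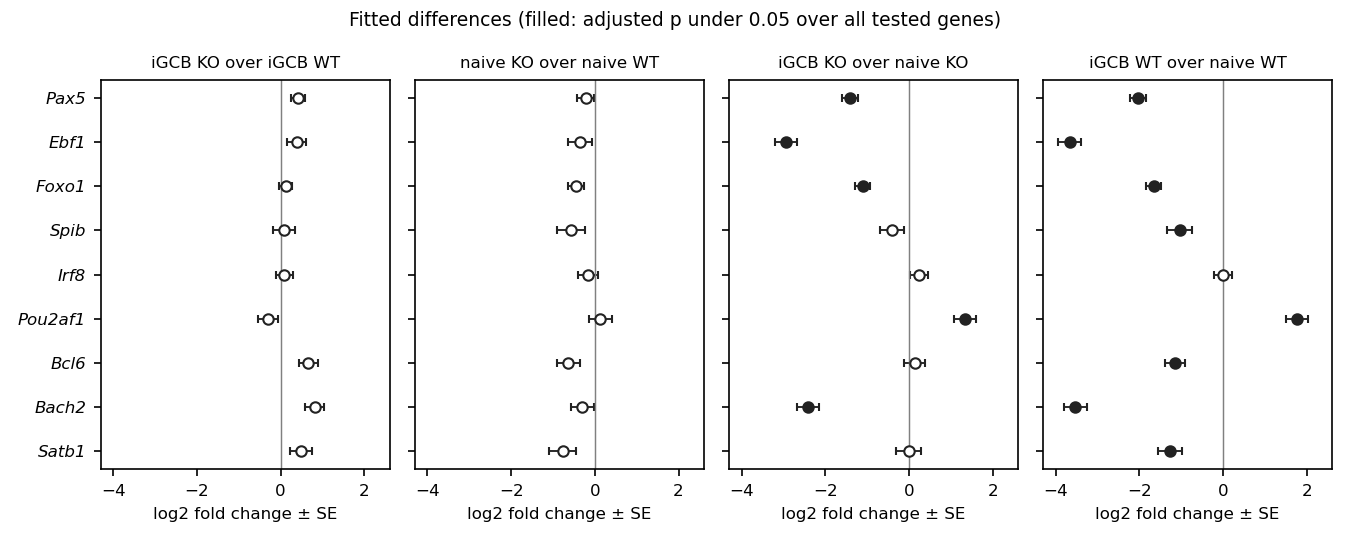
Log2 fold change of each member with its standard error, for KO against WT in iGCB and in naive cells and for iGCB against naive in KO and in WT cells. Between stages the members spread from -3.67 to 1.76, whereas between genotypes all 9 lie within -0.77 and 0.81.

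KO was then compared with WT in the iGCB cells. None of the 9 members passed the adjusted threshold in edgeR, where 1.27% of all genes did. With DESeq2 1 member passed, Bach2 (log2 fold change 0.8, adjusted p = 0.0319). DESeq2 called more genes over all in this comparison, 832 where edgeR called 266. At an unadjusted p under 0.05 there were 3 of 9 members (Bach2, Bcl6 and Pax5), beside 9.76% of all genes. Estimates were above 0 for 8 of the 9, beside 47.5% of all genes, and the median was 0.38 over the members and 0 over all genes. Groups that did not overlap were found for 3 members higher in KO (Bcl6, Pax5 and Irf8, beside 10.2% of all genes) and 1 lower (Pou2af1, beside 10.3%).

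Bach2 had the largest of the 9 estimates, with 106, 69.8 and 87 CPM in iGCB KO and 70.5, 40.3 and 39.1 CPM in iGCB WT. The groups overlapped by a narrow margin, the second KO library lying just under the first WT library (log2 fold change 0.81, SE 0.23, adjusted p = 0.178). Without iGCB WT 1 the estimate was 1.14 (adjusted p = 0.0327). Bcl6 was at 124, 96.3 and 115 CPM in iGCB KO and 87.9, 67.8 and 56.6 CPM in iGCB WT. Every KO library was above every WT library, and the log2 fold change was 0.66 (SE 0.22, adjusted p = 0.294).

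Pax5 was at 640, 547 and 752 CPM in iGCB KO and 506, 471 and 467 CPM in iGCB WT. All KO libraries were higher and also more spread, and the log2 fold change came to 0.42 (SE 0.17, adjusted p = 0.407). Its upstream factor Ebf1 was at 122, 97.8 and 121 CPM in iGCB KO and 98.7, 95.7 and 67.2 CPM in iGCB WT. One WT library overlapped the KO range (log2 fold change 0.38, SE 0.23, adjusted p = 0.677). Satb1 was at 426, 420 and 429 CPM in iGCB KO and 249, 424 and 236 CPM in iGCB WT. The KO libraries were almost equal and the second WT library was level with them (log2 fold change 0.49, SE 0.26, adjusted p = 0.62).

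Foxo1, Spib and Irf8 had estimates of 0.12 (SE 0.16), 0.08 (SE 0.27) and 0.09 (SE 0.2) on the log2 scale. Irf8 was nevertheless higher in every KO library, at 610, 586 and 579 CPM in iGCB KO and 569, 552 and 543 CPM in iGCB WT. Pou2af1 was the member with a negative estimate, at 2530, 2490 and 2620 CPM in iGCB KO and 3030, 3040 and 3330 CPM in iGCB WT. Each KO library lay below each WT library (log2 fold change -0.3, SE 0.23, adjusted p = 0.763).

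In naive cells, no member passed between KO and WT in edgeR or in DESeq2, where edgeR called 0.0476% of all genes. Pcbp1 itself missed the threshold there in edgeR (log2 fold change -5.59, SE 0.82, adjusted p = 0.0561). Even a large loss could thus go uncalled in this comparison. At an unadjusted p under 0.05 there were 3 of 9 members (Bcl6, Foxo1 and Satb1), beside 5.55% of all genes. Estimates were below 0 for 8 of the 9, beside 54.8% of all genes, with a median of -0.35 over the members and -0.05 over all genes. KO libraries were both below WT libraries for 4 members (Bcl6, Bach2, Foxo1 and Satb1), beside 12.7% of all genes.

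Satb1 was at 355 and 502 CPM in naive KO and 525 and 935 CPM in naive WT. The groups did not overlap, though the higher KO library came close to the lower WT one (log2 fold change -0.77, SE 0.33, adjusted p = 0.837). Bcl6 was at 79.5 and 122 CPM in naive KO and 184 and 128 CPM in naive WT. The male libraries were near each other and the female ones apart, with log2 ratios of -0.07 within the male pair and -1.21 within the female pair (fitted log2 fold change -0.63, SE 0.27, adjusted p = 0.855). Foxo1 was at 531 and 523 CPM in naive KO and 654 and 782 CPM in naive WT. Its ratio was -0.3 within the female pair and -0.58 within the male pair (fitted -0.45, SE 0.2, adjusted p = 0.869).

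Bach2 was at 451 and 485 CPM in naive KO and 555 and 598 CPM in naive WT, with both KO libraries lower and the same log2 ratio of -0.3 in each pair (SE of the fit 0.28, adjusted p = 1). Pax5 (-0.22, SE 0.21), Ebf1 (-0.35, SE 0.28), Spib (-0.57, SE 0.33), Irf8 (-0.16, SE 0.24) and Pou2af1 (0.13, SE 0.28) had overlapping groups. For Spib the log2 ratio was -0.86 within the female pair and -0.06 within the male pair. For Irf8 it was -0.41 within the female pair and 0.21 within the male pair. For Pou2af1 it was -0.14 within the female and 0.54 within the male pair. The pairs thus differed in sign for Irf8 and Pou2af1 and not for Spib.

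The KO effect was set against itself between stages, as the iGCB log2 fold change minus the naive one. This equals the difference between the stage changes of KO and WT cells. None of the 9 members passed in edgeR or in DESeq2, where edgeR called 0.0333% of all genes, and 5 of 9 had an unadjusted p under 0.05 (Pax5, Bcl6, Bach2, Foxo1 and Satb1), beside 6.06%. The difference was above 0 for 8 of the 9, beside 52.6% of all genes, with a median of 0.64 over the members and 0.04 over all genes. It was 1.29 for Bcl6 (SE 0.35, adjusted p = 0.392), 1.26 for Satb1 (SE 0.42, adjusted p = 0.564), 1.11 for Bach2 (SE 0.37, adjusted p = 0.559) and -0.42 for Pou2af1 (SE 0.36, adjusted p = 0.971). Bcl6 was the member whose libraries separated in opposite directions at the stages, KO above WT in iGCB cells and KO below WT in naive cells. At the closest, the naive libraries were at 122 CPM in KO and 128 CPM in WT. Of all genes, 10.2% separated upward in iGCB KO and 12.7% downward in naive KO. The share of all genes that did both was not counted.

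Other cell types share several of these factors, so their markers were summed. The 17 T and NK cell markers summed to 334 to 409 CPM in iGCB KO, 318 to 454 in iGCB WT, 65.5 to 155 in naive KO and 81.4 to 132 in naive WT. Thy1, also one of the fibroblast feeder markers summed below, alone gave 257 to 413 CPM of the iGCB sums. Cd3e was at 0.501 CPM or less in the iGCB libraries. Behind that sum, Lck, a kinase of T cell receptor signalling, was at 60.5, 67.9 and 66.3 CPM in iGCB KO and 23.8, 16.9 and 23.8 CPM in iGCB WT, with KO above WT throughout (log2 fold change 1.6, SE 0.22, adjusted p = 0.00673). It was the 1 marker of the 17 that passed in this comparison. Cd247 (0.588 to 1.23 CPM in iGCB KO and 0.279 to 0.496 in iGCB WT) and Trbc2 (0.285 to 0.353 CPM in iGCB KO and 0 to 0.0584 in iGCB WT) were also higher in every KO library but did not pass (adjusted p = 0.333 for Cd247 and 0.296 for Trbc2). Over all 17 markers, estimates for iGCB KO against WT were above 0 for 8 and below 0 for 9 (median -0.07). Among those below 0, Cd3e averaged 0.12 CPM in iGCB KO and 0.267 in iGCB WT, and Cd4 0.04 and 0.125. The part of T and NK cells in the Satb1 and Foxo1 values of the iGCB libraries was not tested. In naive cells, Satb1 was highest in naive WT 2, whose T and NK sum was 81.4 CPM, and lowest in naive KO 1, whose sum was 155 CPM, the highest of the 4. For Irf8 and Spib, the 20 myeloid and dendritic markers summed to 215 to 250 CPM in iGCB KO, 158 to 225 in iGCB WT, 103 and 464 in naive KO and 309 and 364 in naive WT. In iGCB KO 3 of these 20 and in iGCB WT 4 were at 0. The sums hide opposite changes, as 13 of the 20 fell between stages in WT cells and 3 rose (median log2 fold change -3.9). In KO cells 10 fell and 2 rose (median -2.66). Csf1r and C1qa averaged 0.685 and 0.0164 CPM in iGCB WT and 89 and 27.9 CPM in naive WT. Flt3, Zbtb46 and Cst3 averaged 49.7, 38.8 and 43.6 CPM in iGCB WT and 6.85, 3.19 and 26.2 CPM in naive WT. Among naive libraries, naive KO 2 had the lowest sum and the lower KO values of Irf8 and Spib. The lowest naive Irf8 value of all, 395 CPM, was in naive WT 2, whose sum was 309 CPM. The part of such cells in those values was not tested.

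For Ebf1, which stromal cells also express, the 16 fibroblast feeder markers summed to 851 to 1070 CPM in iGCB KO, 855 to 1300 in iGCB WT, 234 to 269 in naive KO and 274 to 363 in naive WT. Of these, 1 marker was at 0 in iGCB KO, 1 in iGCB WT, 3 in naive KO and 1 in naive WT. Vim made up 474 to 870 CPM of the iGCB sums, and Thy1, also counted among the T and NK cell markers, 257 to 413 CPM. Col1a1 was at 13.7 to 20.7 CPM in iGCB KO, 13.1 to 29.5 in iGCB WT and at most 0.555 in the naive libraries. How much of the iGCB Ebf1 signal came from feeders was not tested. The 11 erythroid and platelet markers summed to 3.28 to 8.74 CPM in iGCB KO, 3.27 to 6.21 in iGCB WT, 33.2 and 224 in naive KO and 103 and 156 in naive WT.

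The profiles of the members over the 10 libraries were compared by the root mean square difference of centred log2 CPM. Pax5 and Foxo1 were the closest pair of members (0.253), then Bach2 and Ebf1 (0.332) and Bcl6 and Satb1 (0.415). Ebf1 and Pou2af1 were the farthest apart (2.46). Among 9401 candidate genes, the nearest to Bach2 was Grap2 (0.167), at 32.9 CPM in iGCB KO, 19.6 in iGCB WT, 203 in naive KO and 248 in naive WT. The nearest gene to Ebf1 was Per1 (0.125), to Pax5 Dennd1b (0.105), to Foxo1 Crebrf (0.11), to Spib Zfpl1 (0.143) and to Pou2af1 Ctnnb1 (0.122). Irf8, the flattest member, had the closest neighbour of all in Kcmf1 (0.0785), and Bcl6 and Satb1 the most distant, in Zfp821 (0.245) and Atp2b1 (0.228). This is a description over libraries that share their groups.

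Related genes were read from 8 lists of 94 distinct genes, which overlap. Among other B lineage transcription factors, 31 of 32 were tested and none passed between KO and WT in iGCB cells in the main edgeR fit (median 0.13). Zfp318, a regulator of IgD splicing, came closest, at 173, 114 and 138 CPM in iGCB KO and 88.2, 68.5 and 51 CPM in iGCB WT, with KO above WT throughout (log2 fold change 1.03, SE 0.23, adjusted p = 0.0605). It passed in 6 of 14 alternative fits, DESeq2 among them. Between stages in WT cells 20 of the 31 fell and 5 rose, where 31.7% of all genes fell and 24.7% rose. Foxp1, a forkhead factor of naive B cells, was at 121, 65.1 and 73.2 CPM in iGCB WT and 1080 and 1390 CPM in naive WT (log2 fold change -3.84, SE 0.27, adjusted p = 1.77e-06). In KO cells 17 fell and 4 rose, where 31.4% of all genes fell and 24.8% rose, and Lef1, a factor of early B cells, was among those that rose, by 3.6 (SE 0.26, adjusted p = 2.59e-06).

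Of 9 listed plasma cell transcription factors and cofactors, 4 were lower in iGCB KO than in iGCB WT, beside 0.923% of all genes, and none was higher (median -0.69). Bhlha15, the secretory cell factor Mist1, was at 1.68, 3.68 and 2.53 CPM in iGCB KO and 31.8, 29.4 and 31.1 CPM in iGCB WT, far apart (log2 fold change -3.55, SE 0.4, adjusted p = 0.00211). Creb3l2, a membrane-bound factor of the secretory pathway, was at 9.35, 8 and 10.1 CPM in iGCB KO and 33.1, 32.3 and 29.8 CPM in iGCB WT, equally without overlap (log2 fold change -1.8, SE 0.18, adjusted p = 0.00114). Its difference of KO effects between stages was -2.04 (SE 0.28, adjusted p = 0.0421), which passed in only 3 of 10 fits without 1 library. Prdm1 (log2 fold change -2.28, SE 0.37, adjusted p = 0.0144) and Xbp1 (-0.93, SE 0.18, adjusted p = 0.0323) completed the 4. Prdm1 missed the threshold without any 1 of the 3 KO libraries (adjusted p up to 0.104), and Xbp1 without any 1 of the 6 iGCB libraries (up to 0.194).

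Genes known to be controlled by the members were read against the 1.27% of all genes that passed between KO and WT in iGCB cells (0.923% of all genes were lower). The lists are short and overlap, so 1 gene makes up a large share of a list. Among the 15 reported genes activated by Pax5, Nedd9 rose in iGCB KO (300, 275 and 319 CPM, against 183, 157 and 154 CPM in iGCB WT, log2 fold change 0.85, SE 0.14, adjusted p = 0.0125) and Cd79a fell (-1.03, SE 0.15, adjusted p = 0.00794). Mb1-Cre sits at the Cd79a locus, so the Cre allele and Pcbp1 loss cannot be told apart for Cd79a. Without 1 library, Nedd9 passed only when iGCB WT 1 was left out (adjusted p up to 0.0898), and Cd79a missed the threshold without iGCB KO 1 (0.0556) or iGCB KO 3 (0.0714). In naive cells Cd79a was the only call over all 8 lists (-1.6, SE 0.18, adjusted p = 0.0126). That call was lost without naive KO 1 (0.0655), without naive KO 2 (0.0537) and with the naive groups fitted alone (adjusted p = 1). Of 8 genes repressed by Pax5, 2 fell past the threshold in iGCB KO (Jchain, by 3.27 on the log2 scale, and Xbp1) and none rose past it. Estimates for the 8 were above 0 for 4 and below 0 for 4 (median 0).

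Among 20 genes repressed by Bcl6, 2 fell in iGCB KO (Prdm1 and S1pr1), and among 6 repressed by the Bach factors 1 fell (Prdm1), where 0.923% of all genes fell. Passing or not, estimates for the 20 were above 0 for 13 and below 0 for 7 (median 0.09). For the 6 they were above 0 for 1 and below 0 for 5 (median -0.15). S1pr1, the receptor for egress into blood, was at 6.64, 3.98 and 3.71 CPM in iGCB KO and 32, 15.6 and 15.5 CPM in iGCB WT, all KO libraries being lower (log2 fold change -2.14, SE 0.31, adjusted p = 0.00949). It missed the threshold without iGCB KO 2 (adjusted p = 0.0676) or iGCB KO 3 (0.0778). Of the 12 genes activated by Foxo1 that are reported here, S1pr1 fell. Of the 9 reported genes activated by Irf8 or Spib, Cd79a fell.

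Between stages in WT cells, 31.7% of all genes fell and 24.7% rose, and the counts of the target lists are to be read against these shares. Of the genes activated by Pax5, 9 of the 15 reported fell and 2 rose, and Cr2, the complement receptor of naive B cells, was at 6.1, 5.46 and 4.14 CPM in iGCB WT and 702 and 1120 CPM in naive WT (log2 fold change -7.45, SE 0.31, adjusted p = 1.41e-07). Of those activated by Foxo1, 9 of the 12 reported fell and 1 rose, with S1pr1 at -5.19 (SE 0.36, adjusted p = 1.66e-06). Of those activated by Irf8 or Spib, 8 of the 9 reported fell. Syk, a kinase of the B cell receptor, was lower by a log2 difference of -3.94 (SE 0.22, adjusted p = 4.54e-07). Genes repressed by Bcl6 split into 9 that rose and 8 that fell of 20, and those repressed by Pax5 into 3 that rose and 3 that fell of 8. Of those repressed by the Bach factors, 4 of 6 rose and 1 fell.

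**Figure D4:**
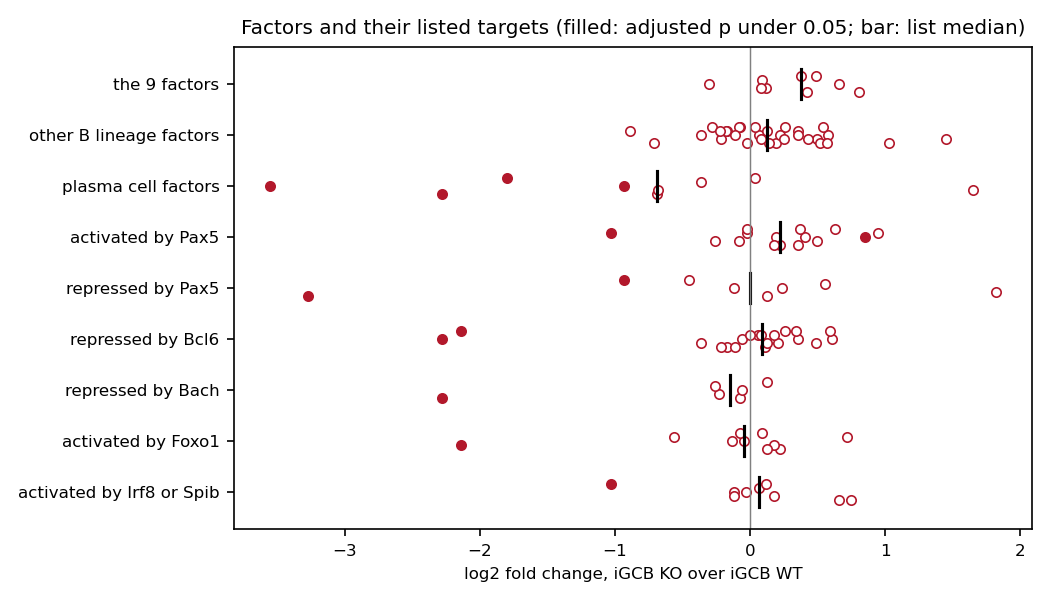
Log2 fold changes of KO against WT in iGCB cells for the 9 members and the 8 lists of related genes, with 1 point per gene, filled where the adjusted p passed 0.05, and a bar at each list's median. Genes at 0 in either group are not drawn. The plasma cell factors reach -3.55, while no member lies beyond -0.3 and 0.81.

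Antisense and intronic genes overlap several members, and the strand setting of the counting is not given in the sources used here. Ebf1 (214857 counts over all libraries) overlaps the antisense gene Gm12158 (9632 counts). Satb1 (189004 counts) overlaps 6 uncharacterised loci. The most abundant are Gm36931 (16444 counts), Gm37248 (13207) and C230085N15Rik (10281), which lie on the strand of Satb1. Foxo1 (175575 counts) overlaps Gm38034 (11436 counts), likewise on the same strand. Loci on the same strand are not separated by any strand setting. Reads shared with these loci could move the values of Ebf1, Satb1 and Foxo1.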

How the data were processed

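The deposited values were raw counts per gene symbol, made by the authors with featureCounts on mm10 per the submitters' processing notes. The sources used here do not give the aligner, annotation or strand setting. Among counts of 1 to 20, odd values made up 17.7% to 26.9%, a share low enough that paired mates may have been counted singly.

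Genes passing filterByExpr (minimum count 10) were scaled by TMM and fitted by edgeR 4.0.16 (R 4.3.3) in 1 quasi-likelihood model of the 4 groups, leaving 6 residual degrees of freedom. Two-sided p-values were adjusted over 21010 genes by the Benjamini-Hochberg method. CPM used TMM-scaled totals. The SE is the absolute log2 fold change over the square root of F. DESeq2 1.42.0 was an alternative. The pipeline was tested on simulated data. List medians set a group at 0 to 3 counts.

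Lengths and positions came from GENCODE M21, promoters from RefSeq. The members, the lists and the tests were chosen with earlier results of these data known. All members were named, with up to 3 genes past the threshold per list and comparison, or the 1 with the smallest p, and the nearest gene per member. Not every gene so taken is described, and some listed genes are not reported here and were left out of the lists' counts.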

Additional observations from a re-analysis of the deposited data

Results flagged for a closer look

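Bcl6 was singled out because its KO libraries moved in opposite directions at the 2 stages. All 3 iGCB KO libraries were above all iGCB WT libraries, and both naive KO libraries were below both naive WT libraries. The share of all genes with this pattern was not counted. The difference of the KO effects was 1.29 on the log2 scale (SE 0.35), and edgeR's quasi-likelihood test gave it an adjusted p of 0.392. Within the naive male pair the log2 ratio was -0.07, so the naive separation came mainly from the female pair. No test for outlying libraries was run, since no group held more than 3 libraries.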

How the results depend on the processing

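The count of members past the threshold was recomputed under each alternative. For KO against WT in naive cells it was 0 in all of them. In iGCB cells it was 0, but 2 without the low-count filter (Bcl6, adjusted p = 0.0422, and Bach2, adjusted p = 0.00258), 1 with DESeq2 (Bach2), 1 with only the groups compared (Bcl6, adjusted p = 0.0421), 1 with the replicate block (Bach2 at 0.84, adjusted p = 0.0132), and 0 to 1 when 1 library was left out. The difference of KO effects had 0, but 3 without the filter (Bcl6, Bach2 and Satb1). Between stages, WT cells had 8 (7 with the replicate block or a sex term) and KO cells 5 (6 with a sex term). Spib in WT was -0.89 with the block (adjusted p = 0.0735) and -0.55 with a sex term (adjusted p = 0.0537). 

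For values not past the threshold the sign could turn. Between stages in WT cells, Irf8 was 0.04 by library size alone, 0.05 without the filter, 0.02 with only the groups compared, 0.07 with the replicate block, 0.33 with a sex term and 0.49 among male libraries (adjusted p = 0.0279, an alternative chosen after seeing the data, as are all others on male libraries), and ran from -0.39 to 0.49 with 1 library left out. Male libraries alone gave 0.2 for Irf8 in naive KO against WT, -0.12 for Bcl6 between stages in KO cells, and -0.11 for the Irf8 difference of KO effects. Leaving out 1 library in turn, naive KO against WT ran from -0.69 to 0.07 for Ebf1, -1.05 to 0.14 for Spib, -0.54 to 0.34 for Irf8, -0.3 to 0.71 for Pou2af1 and -1.27 to 0.13 for Cdkn1a. Likewise Spib ran from -0.02 to 0.22 for iGCB KO against WT, Bcl6 from -0.12 to 0.49 and Satb1 from -0.23 to 0.26 between stages in KO cells, and the difference of KO effects from -0.06 to 1.13 for Spib and -0.24 to 0.63 for Irf8.

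Of 621 refits of single members, 586 kept direction and side of the threshold, 10 newly passed it without a reversal and 4 lost it. A further 21 reversed in sign and were counted as reversed on whichever side of the threshold they fell. Over all genes, calls in iGCB KO numbered 266, 863 with only the groups compared, 841 without the filter, 832 with DESeq2 and 589 with the replicate block. For the difference of KO effects they numbered 7, and 373 without the filter. Naive calls numbered 10, 0 with only the naive groups, 242 without the filter and 171 with DESeq2. The causes were not tested. Scaling by library size alone moved the median of all genes by 0.13 for naive KO against WT and by -0.14 for the difference. After group means were removed, same-numbered libraries correlated at 0.7 in naive cells, where the numbers also separate the sexes, and at 0.58, -0.23 and -0.08 in iGCB cells, so the numbers were not used as pairs over the whole design. With 2 or 3 libraries a group, the SE of 0.16 to 0.33 for the KO effects on members limits what could be called.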
